A study of Mus musculus with 8 samples.

Results

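The p53 pathway genes described here are Trp53, which encodes the transcription factor p53, with regulators and target genes of p53 outside the BCL2 and CDK inhibitor families. They form a list of 32 symbols set by gene function, drawn up with earlier results of these data known. All 32 were found among the 41214 gene identifiers of the count files, and all 32 were among the 16456 genes with enough counts to be tested. Their messenger RNA was measured by RNA-seq in 8 spleen tumours of C57Bl6 mice, each from a mouse with its own number in the labels. The series asks how loss of the POZ domain of Miz1, a zinc finger transcription factor encoded by Zbtb17, affects expression in leukemia of both lineages. The groups were B cell tumours with Miz1 deltaPOZ (B deltaPOZ), B cell tumours with Miz1 wt (B wt), CD4+ T cell tumours with Miz1 deltaPOZ (T deltaPOZ) and CD4+ T cell tumours with Miz1 wt (T wt), with n = 2 in each. The deposited names of all T libraries carry the word Notch, and those of T deltaPOZ but not T wt carry the word ENU, which cannot be told apart from genotype in T. The driver of the deletion, the cause of the B tumours and the age of the mice are not stated in the labels.

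The libraries held 44.3 to 58.3 M gene counts, so that 3 counts corresponded to 0.0515 to 0.0677 CPM (counts scaled by library size), which covers counting error only. The B libraries held B cell markers at a summed 1448 to 2335 CPM and the T libraries T cell markers at 1891 to 3577 CPM, and Cd8a (356 to 1246 CPM) stood beside Cd4 (98.8 to 432 CPM) in every T library. Zbtb17 averaged 54.2 ± 6.9 CPM in B deltaPOZ and 57.1 ± 13 CPM in B wt, and 38.5 ± 2.3 CPM in T deltaPOZ and 45.9 ± 5.2 CPM in T wt (SD, n = 2 each), and a count over the whole gene says little of the allele. Myeloid markers summed to 1420 CPM in B wt 2 and to 106 to 228 CPM in the other B libraries. Erythroid markers summed to 222 CPM in B deltaPOZ 2, to 4.89 to 12.8 CPM in the other B libraries and to 4658 to 22657 CPM in T. Xist, made from the silenced X chromosome of females, was at 0.936 and 0.757 CPM in B deltaPOZ against 975 and 1477 CPM in B wt, so sex and genotype cannot be told apart in B. B and T libraries carry different run numbers in their deposited names, so run and lineage cannot be told apart either. B wt 2, T wt 1 (Xist at 1246 CPM) and T deltaPOZ 2 (counts in 25387 genes) stood apart from their groups, and values with libraries left out are given beside the genes they moved most.

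The protein p53 is kept scarce in unstressed cells by Mdm2, a ubiquitin ligase, and by its relative Mdm4. DNA damage, oncogene activity or impaired ribosome assembly releases p53, which then binds a pair of half-sites near its target genes and raises transcription of genes for cell cycle arrest, cell death and DNA repair, and of Mdm2 itself. In lymphoid tumours of mice the pathway is often disabled, and earlier work on mouse lymphoid precursors reported that loss of the Miz1 POZ domain raised translation of Trp53 messenger RNA. RNA levels do not measure p53 protein or its activity.

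The half-site consensus was looked for in the promoter windows of RefSeq (GRCm38.p6), which run from 250 bases before to 50 bases after a start site, and windows were found for 24 of the 32 genes. The consensus reads alike on both strands, so a single search covers both, and no other motif was searched. It was present for 9 of the 24 genes (37.5%), against 2582 of 27025 genes with a window (9.55%), and a full pair of half-sites lay in no window of the 32 genes. Counted by window, 10 of 36 windows of these genes held it (27.8%), against 2745 of 32851 (8.36%). Overlapping windows of Aen hold the same half-site, at positions 11 and -121, so it was counted in each. Since the list was drawn up from targets and regulators of p53, these shares are not independent of that choice. The 9 genes were Trp53, Mdm2, Ppm1d, Ccng1, Gtse1, Sesn1, Aen, Ei24 and Polk. A match describes letters and does not show binding, and p53 sites outside these windows were not searched. The windows of Trp53 (chr11:69580109-69580408, plus strand), of its inhibitors Mdm2 (chr10:117710709-117711008, minus strand) and Ppm1d (chr11:85311004-85311303, plus strand), and of Ccng1 (chr11:40755237-40755536, minus strand) are shown because they are the core genes with a match and the target whose order differed between B and T. They are written 5′ to 3′ with the half-site in capitals, which begins at position -75 from the start site in Trp53, -186 in Mdm2, -132 in Ppm1d and -185 in Ccng1.
Trp53: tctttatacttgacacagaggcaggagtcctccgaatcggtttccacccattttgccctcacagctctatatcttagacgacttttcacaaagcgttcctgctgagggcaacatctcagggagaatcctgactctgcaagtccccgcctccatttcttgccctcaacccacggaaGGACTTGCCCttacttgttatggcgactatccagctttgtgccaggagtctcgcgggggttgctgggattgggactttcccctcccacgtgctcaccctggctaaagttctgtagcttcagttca
Mdm2: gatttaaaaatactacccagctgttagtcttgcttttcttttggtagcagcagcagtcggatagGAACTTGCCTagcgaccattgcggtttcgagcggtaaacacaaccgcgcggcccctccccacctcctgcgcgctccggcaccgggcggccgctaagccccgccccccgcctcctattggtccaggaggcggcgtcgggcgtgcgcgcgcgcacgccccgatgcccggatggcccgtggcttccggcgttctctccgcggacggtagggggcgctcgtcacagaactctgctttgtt
Ppm1d: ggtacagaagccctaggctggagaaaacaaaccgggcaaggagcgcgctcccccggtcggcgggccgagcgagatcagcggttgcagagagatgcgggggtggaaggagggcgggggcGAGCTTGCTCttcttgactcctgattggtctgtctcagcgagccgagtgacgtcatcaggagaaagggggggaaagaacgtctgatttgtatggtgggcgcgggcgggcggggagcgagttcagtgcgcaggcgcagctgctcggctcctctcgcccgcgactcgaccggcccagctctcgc
Ccng1: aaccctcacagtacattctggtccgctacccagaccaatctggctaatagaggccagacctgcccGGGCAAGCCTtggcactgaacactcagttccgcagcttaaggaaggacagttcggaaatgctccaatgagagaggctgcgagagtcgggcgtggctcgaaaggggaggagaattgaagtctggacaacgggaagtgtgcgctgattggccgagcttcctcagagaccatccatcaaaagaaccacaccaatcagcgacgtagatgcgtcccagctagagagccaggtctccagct

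The first question was which of these genes differed between deltaPOZ and wt tumours. In B, 0 of the 32 genes passed edgeR's quasi-likelihood test at an adjusted p of 0.05, where 1 of all 16456 tested genes did (0.00608%). At an unadjusted p under 0.05 there were 5, 2 higher (Sesn2 and Xpc) and 3 lower (Ccng1, Gtse1 and Phlda3), or 15.6% against 12.1% of all tested genes. Of all genes 5.68% were so placed with a higher and 6.45% with a lower level. DESeq2 called 1 of them, Phlda3, and 682 of all genes (4.14%). In T, 0 passed by edgeR (0% of all tested genes) and 0 by DESeq2 (51 of all genes, 0.31%), and Mdm4 alone had an unadjusted p under 0.05 (3.12% against 2.65%, or 1.35% lower). In the average over both lineages 0 passed by edgeR (0% of all) and 0 by DESeq2 (1.93% of all), with 4 at an unadjusted p under 0.05 (12.5% against 8.9%): Ak1 and Fdxr higher (4.19% of all were), Fas and Gtse1 lower (4.71% of all). The median log2 fold change of the 32 genes was -0.06 in B and -0.01 in T, against -0.01 and -0.00 over all tested genes. With 1 library left out the median of the 32 ran from -0.16 to 0.17 in B, highest without B wt 2, and from -0.09 to 0.16 in T, highest without T wt 1, so its sign turned in both lineages. These shares and medians lay near those of all genes.

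**Figure D1:**
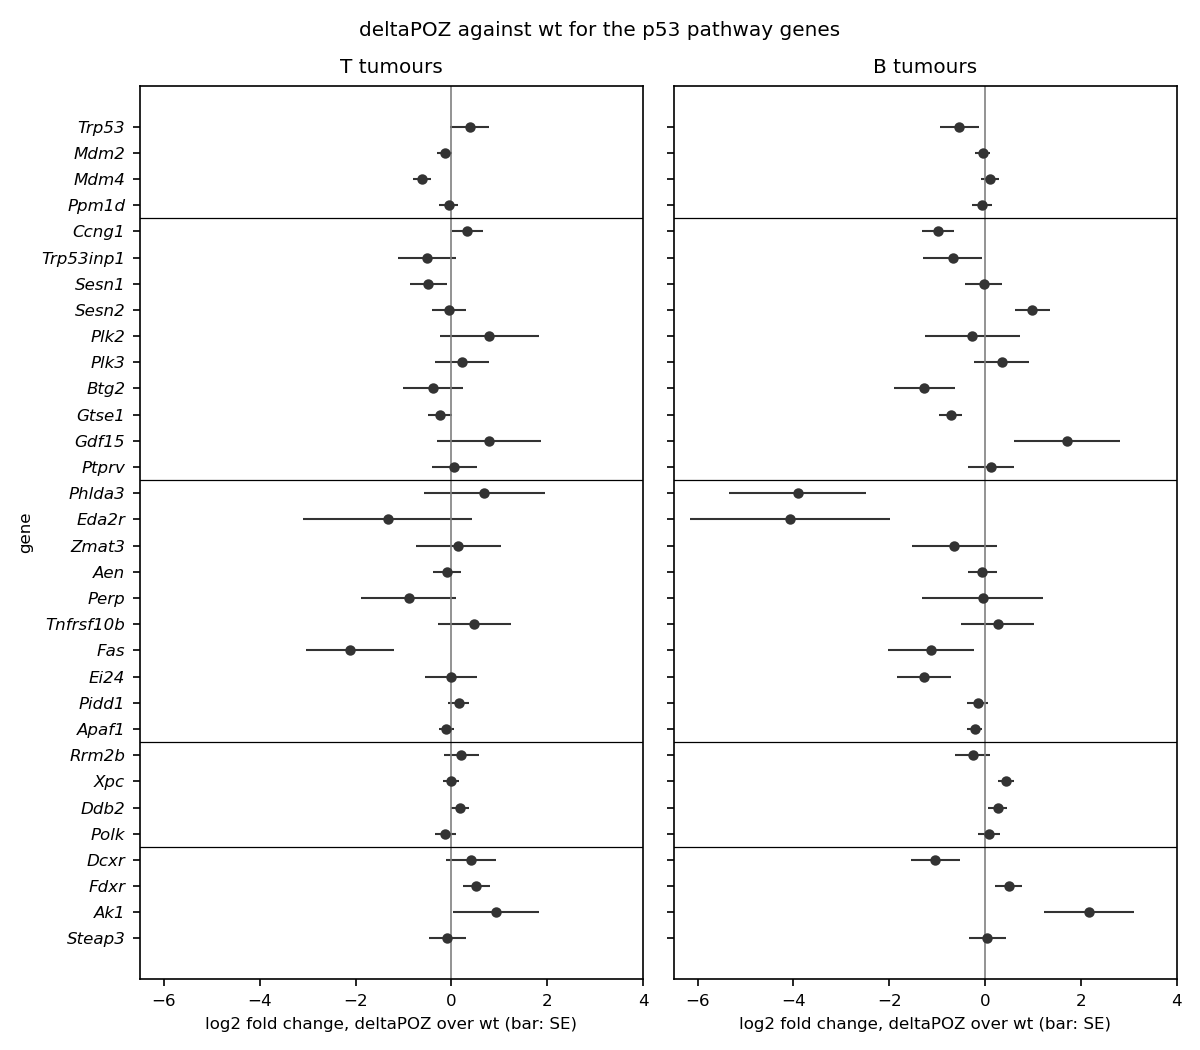
Log2 fold change, deltaPOZ over wt, of each of the 32 genes in T tumours (left) and B tumours (right), with points for the edgeR estimate and bars for its standard error; lines part the roles. Phlda3 (-3.91) and Eda2r (-4.08) lie far left in B with long bars, while most genes lie near 0, and Mdm4 (-0.61) in T has a short bar that stays left of 0.

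Groups of 2 did not overlap for 12 of the 32 genes in B (37.5%, against 38.9% of all tested genes) and for 11 in T (34.4% against 32.4%). Apaf1 was lower in every deltaPOZ library than in both wt libraries of its lineage, as 4.42% of all genes were. Ak1 and Ddb2 were higher in every deltaPOZ library than in both wt libraries of their lineage, as were 3.6% of all genes. Ccng1 alone stood on opposite sides in B and T, as 4.64% of all genes did.

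Trp53 itself (ENSMUSG00000059552, GRCm38 chromosome 11, 69580359 to 69591873, plus strand) was measured at 67.0 and 28.5 CPM in B deltaPOZ, against 56.4 and 81.8 CPM in B wt. The B groups overlapped, and the spread came from B deltaPOZ 2, the lowest of the 8 libraries. In T the levels were 109 and 89.6 CPM in T deltaPOZ, against 67.2 and 85.3 CPM in T wt, and both T deltaPOZ libraries lay above both T wt libraries. Its change, deltaPOZ over wt on the log2 scale, was -0.53 (SE 0.41, edgeR adjusted p = 0.630) in B and 0.38 (SE 0.41, adjusted p = 1) in T. Without B deltaPOZ 2 the B value was -0.04, and without B deltaPOZ 1 it was -1.23. Without B wt 2 it was -0.18. The T value ran from 0.21 without T wt 1 to 0.57 without T wt 2. Since these are bulk tumours, fewer cells of a type and less RNA per cell cannot be told apart for any gene.

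Mdm2 (ENSMUSG00000020184, chromosome 10, 117688875 to 117710758, minus strand), both target and inhibitor of p53, differed little between genotypes. It stood at 83.1 and 77.3 CPM in B deltaPOZ and at 85.8 and 79.7 CPM in B wt. In T it stood at 100.4 and 97.5 CPM in T deltaPOZ and at 103 and 115 CPM in T wt. The log2 fold changes were -0.04 (SE 0.16) in B and -0.14 (SE 0.16) in T, with edgeR adjusted p of 0.937 and 1. Ppm1d, the phosphatase Wip1 that dephosphorylates p53 and its kinases, was likewise close between genotypes. It had 43.1 and 39.6 CPM in B deltaPOZ against 48.5 and 37.9 CPM in B wt, and 50.3 and 47.3 CPM in T deltaPOZ against 47.3 and 54.2 CPM in T wt. The fold changes were -0.06 (SE 0.20) on the log2 scale in both lineages.

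Mdm4 (ENSMUSG00000054387, chromosome 1, 132959484 to 133030561, minus strand), which binds and masks the activation domain of p53, had the smallest p of the 32 genes in T. It was measured at 185 and 187 CPM in T deltaPOZ, against 286 and 284 CPM in T wt. The T groups lay well apart, with replicates close to each other. In B it stood at 251 and 340.2 CPM in B deltaPOZ and at 264 and 286 CPM in B wt, where the groups overlapped. The log2 fold change was -0.61 (SE 0.19) in T, which did not pass over all genes (edgeR unadjusted p = 0.0134, adjusted p = 1), and 0.10 (SE 0.18) in B. It ran from -0.62 to -0.61 when each library was left out in turn, and the T effect minus the B effect was -0.72 (SE 0.26, edgeR adjusted p = 0.746). The 126 tested genes within 10 Mb of Mdm4 lay at a median of -0.09 in T.

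**Figure D2:**
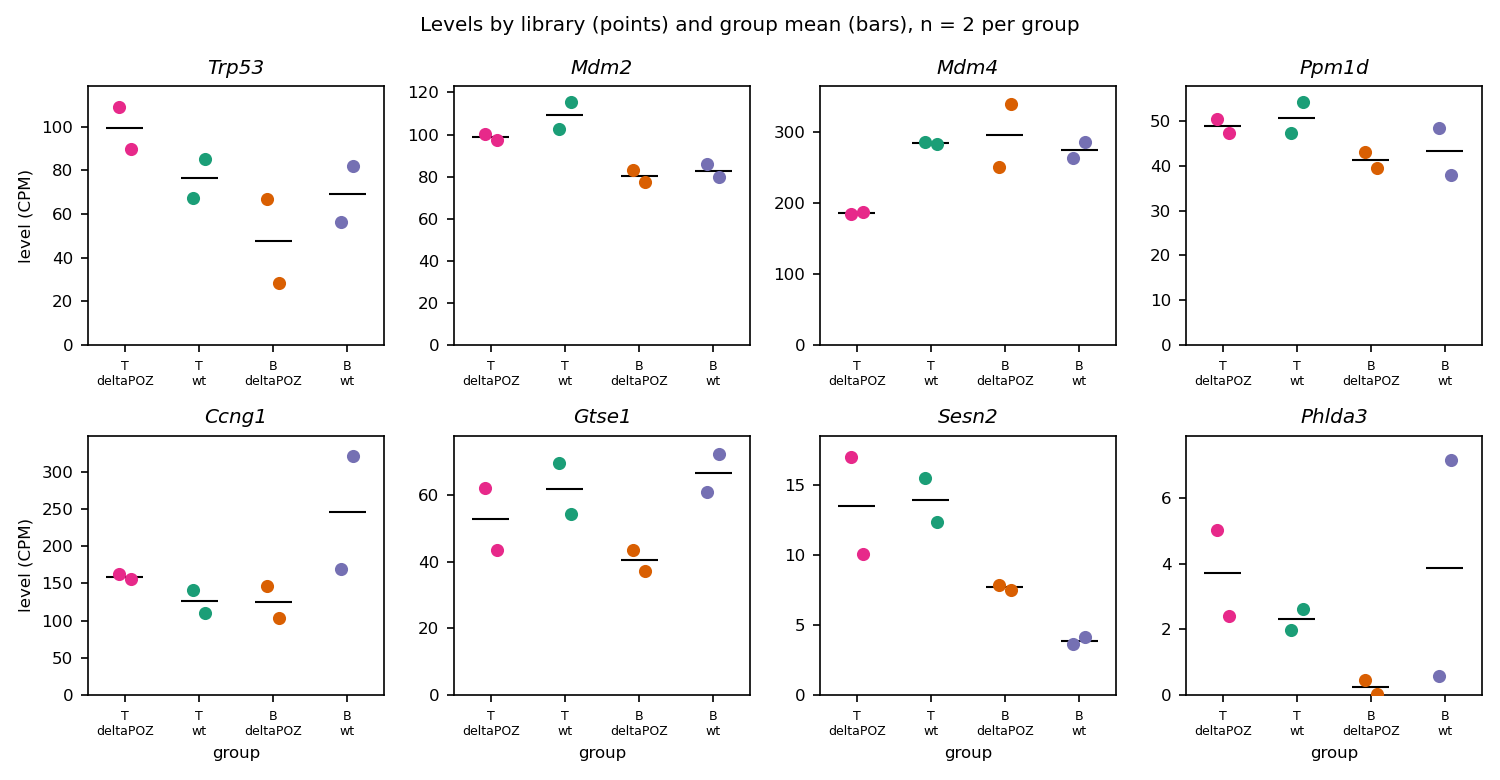
Level in CPM (linear axes from 0) of Trp53, Mdm2, Mdm4, Ppm1d, Ccng1, Gtse1, Sesn2 and Phlda3 in each library (points), with bars at the mean of each group of 2. Mdm4 is lower in both T deltaPOZ libraries (185 and 187 CPM) than in T wt, and Phlda3 in B wt rests on 1 library at 7.16 CPM.

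Among the 10 genes of cell cycle arrest and stress responses, 4 had a positive and 6 a negative log2 fold change in B, with a median of -0.15, and 5 of each sign in T. Ccng1 (ENSMUSG00000020326, chromosome 11, 40748552 to 40755311, minus strand) encodes cyclin G1, which brings the phosphatase PP2A to Mdm2. It stood at 146 and 103 CPM in B deltaPOZ, against 169.7 and 321 CPM in B wt. T tumours held it at 162 and 155 CPM in T deltaPOZ, against 142 and 111 CPM in T wt. The deltaPOZ libraries were thus the lower ones in B and the higher ones in T. The log2 fold change was -0.98 in B (SE 0.33, edgeR unadjusted p = 0.0219, adjusted p = 0.349) and 0.33 in T (SE 0.33, adjusted p = 1). Without B wt 2, the library with the high myeloid markers, the B value was -0.38. The difference of the effects, T minus B, was 1.31 (SE 0.47, edgeR adjusted p = 0.738), and 0.72 without B wt 2.

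Gtse1, a microtubule protein of dividing cells that in human cells carries p53 out of the nucleus, stood at 43.6 and 37.3 CPM in B deltaPOZ, against 60.9 and 72.3 CPM in B wt. In T its levels were 61.9 and 43.5 CPM in T deltaPOZ and 69.6 and 54.2 CPM in T wt, where the groups overlapped. The groups did not overlap in B (-0.72 on the log2 scale, SE 0.25, edgeR adjusted p = 0.360). The average over both lineages was -0.48 (SE 0.18, adjusted p = 0.539). Without B wt 2 the B value was -0.53.

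Sesn2 (ENSMUSG00000028893, chromosome 4, 132492032 to 132510501, minus strand) encodes a sestrin, a leucine sensor that restrains mTORC1. It stood at 7.90 and 7.53 CPM in B deltaPOZ, against 3.66 and 4.11 CPM in B wt. Both B deltaPOZ libraries lay well above both B wt libraries, at 0.99 on the log2 scale (SE 0.36, edgeR adjusted p = 0.370). Its neighbourhood moved with it, since the 299 tested genes within 10 Mb on distal chromosome 4 lay at a median of 0.52 in B, and the part of this shift in the Sesn2 value was not tested. In T, Sesn2 stood at 17.0 and 10.1 CPM in T deltaPOZ and at 15.5 and 12.3 CPM in T wt (log2 fold change -0.04, SE 0.35).

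The other 7 genes of this role had unadjusted p above 0.05 in B, in T and in the average. Btg2, an inhibitor of proliferation, stood at 124 and 114 CPM in B deltaPOZ and at 449 and 123 CPM in B wt, so a single library, B wt 1, was high. Trp53inp1, a nuclear stress protein that promotes phosphorylation of p53, stood at 390.1 and 201 CPM in B deltaPOZ and at 756 and 189 CPM in B wt, and again B wt 1 was high. Gdf15, a secreted stress factor, stayed between 0.0759 and 0.975 CPM in all libraries. Sesn1, another sestrin, was at 29.9 and 60.7 CPM in T deltaPOZ against 53.4 and 73.2 CPM in T wt, and at 125 and 77.8 CPM in B deltaPOZ against 111 and 95.5 CPM in B wt. The genotypes overlapped in both lineages, and T deltaPOZ 1 was the lowest library. On the log2 scale deltaPOZ over wt gave -0.48 in T (SE 0.39, edgeR adjusted p = 1) and -0.03 in B (SE 0.39). The T value ran from -0.07 without T deltaPOZ 1 to -1.08 without T deltaPOZ 2. The kinases Plk2 and Plk3 and the phosphatase gene Ptprv had log2 fold changes between -0.27 and 0.35 in B and between 0.06 and 0.79 in T.

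Of the 10 cell death genes, 9 had a negative log2 fold change in B, with a median of -0.43, where 50.7% of all tested genes were negative and the median was -0.01. This count rested on B wt 2, since without it 4 of the 10 were negative (Phlda3, Ei24, Pidd1 and Apaf1) and the median was 0.24. In T, 6 were negative, with a median of -0.05, and 4 without T wt 1 or 8 without T deltaPOZ 1. None of the 10 passed edgeR over all genes in either lineage (smallest adjusted p = 0.375 in B and 1 in T). Phlda3 (ENSMUSG00000041801, chromosome 1, 135766119 to 135769136, plus strand), which competes with Akt for membrane lipids, had the smallest p among them in B. It stood at 0.468 and 0.0399 CPM in B deltaPOZ (24 and 2 counts), against 0.569 and 7.16 CPM in B wt (30 and 322 counts). B wt 2 was thus the sole high library, and the other B wt library lay just above B deltaPOZ 1. The T values were 5.04 and 2.42 CPM in T deltaPOZ and 1.99 and 2.63 CPM in T wt. The log2 fold change in B was -3.91 (SE 1.44), where edgeR gave an adjusted p of 0.375 and DESeq2 one of 0.0416, and -1.09 by edgeR without B wt 2.

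Fas, a death receptor, had 0.788 and 0.779 CPM in T deltaPOZ, against 4.68 and 2.13 CPM in T wt. In B it stood at 0.702 and 0.558 CPM in B deltaPOZ and at 0.342 and 2.42 CPM in B wt, where the groups overlapped. The high libraries were T wt 1, T wt 2 and B wt 2. The log2 fold change was -2.12 (SE 0.92, edgeR adjusted p = 1) in T, or -1.44 without T wt 1, and -1.62 (SE 0.64, adjusted p = 0.557) in the average over both lineages. That average was -0.59 without B wt 2 and -0.29 without B wt 2, T wt 1 and T deltaPOZ 2 together. Eda2r, a receptor for ectodysplasin A2, held 5 and 0 counts in B deltaPOZ and 0 and 78 counts in B wt. In T it was measured at 0.385 and 0.481 CPM in T deltaPOZ, against 1.23 and 0.955 CPM in T wt. The average over both lineages was -2.70 on the log2 scale (SE 1.36, edgeR adjusted p = 0.599) and turned to 1.59 without B wt 2.

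The other cell death genes were the receptor Tnfrsf10b, the nuclease Aen, the RNA-binding Zmat3, the membrane protein Perp, the endoplasmic reticulum protein Ei24, the caspase-2 platform Pidd1 and the apoptosome scaffold Apaf1. Ei24 stood at 8.99 and 35.2 CPM in B deltaPOZ, against 48.5 and 58.5 CPM in B wt, with B deltaPOZ 1 the low library (log2 fold change -1.27, SE 0.55, edgeR adjusted p = 0.425). Zmat3 stood at 24.9 and 4.62 CPM in B deltaPOZ and at 8.60 and 37.5 CPM in B wt, so each genotype held a high and a low library. Apaf1, lower in all deltaPOZ libraries within each lineage, differed little in size. It stood at 99.6 and 90.4 CPM in B deltaPOZ and at 104 and 117 CPM in B wt, with 84.3 and 88.2 CPM in T deltaPOZ and 93.5 and 91.8 CPM in T wt (average log2 fold change -0.16, SE 0.11, edgeR adjusted p = 0.683).

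Among the 4 DNA repair genes, Xpc, the damage sensor of nucleotide excision repair, stood at 72.2 and 66.9 CPM in B deltaPOZ, against 48.0 and 54.6 CPM in B wt. Its T levels were 52.3 and 51.6 CPM in T deltaPOZ and 53.8 and 50.5 CPM in T wt. The groups did not overlap in B and were level in T, with log2 fold changes of 0.44 (SE 0.17, edgeR adjusted p = 0.389) and -0.01 (SE 0.17). Ddb2, which binds ultraviolet lesions, had 31.0 and 35.1 CPM in B deltaPOZ against 25.5 and 29.5 CPM in B wt, and 31.96 and 31.3 CPM in T deltaPOZ against 28.1 and 27.7 CPM in T wt. All 4 deltaPOZ libraries lay above the wt libraries of their lineage, by an average of 0.22 on the log2 scale (SE 0.14, edgeR adjusted p = 0.648). Ddb2 overlaps Acp2 on the opposite strand (6.53 to 25.2 CPM), and no label states the strand setting of the counting. Polk, a polymerase that copies past lesions, stayed between 19.0 and 23.8 CPM in all libraries. Rrm2b, the p53-induced subunit of ribonucleotide reductase, had log2 fold changes of -0.26 (SE 0.37) in B and 0.21 (SE 0.37) in T.

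Among the 4 metabolic genes, Fdxr, the mitochondrial ferredoxin reductase, stood at 46.2 and 37.7 CPM in B deltaPOZ, against 29.3 and 30.5 CPM in B wt. T tumours had it at 36.2 and 24.0 CPM in T deltaPOZ and at 17.5 and 24.4 CPM in T wt. The B groups did not overlap and the T groups did, and the average log2 fold change was 0.51 (SE 0.20, edgeR adjusted p = 0.558). Ak1, an adenylate kinase, stood at 1.01 and 0.239 CPM in B deltaPOZ against 0.0759 and 0.2002 CPM in B wt. In T the values were 0.257 and 0.547 CPM in T deltaPOZ against 0.223 and 0.198 CPM in T wt. Its average log2 fold change was 1.55 (SE 0.65, edgeR adjusted p = 0.561), and 0.89 without B deltaPOZ 1. The T value was 0.93, and 0.28 without T deltaPOZ 2. Dcxr, a carbonyl and xylulose reductase, stood at 5.44 and 3.93 CPM in B deltaPOZ and at 13.4 and 5.89 CPM in B wt, with B wt 1 the high library. The T effect of Dcxr minus its B effect was 1.44 (SE 0.73, edgeR adjusted p = 0.810), and 0.73 without B wt 1. Steap3, a ferrireductase, had log2 fold changes of 0.05 (SE 0.38) in B and -0.09 (SE 0.38) in T.

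The difference between the deltaPOZ effects in T and in B was tested directly for every gene. Of the 32 genes 0 passed edgeR (0% of all tested genes) and 0 passed DESeq2 (225 of all genes, 1.37%). At an unadjusted p under 0.05 there were 3 (9.38% against 6.26% of all): Ccng1 and Phlda3 with a higher effect in T (3.65% of all) and Mdm4 with a lower one (2.61% of all). The Phlda3 difference of 4.60 (SE 1.89, edgeR adjusted p = 0.795) was 1.80 without B wt 2.

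Single libraries differed widely within a lineage. The highest of the 4 B libraries exceeded the lowest by over 2-fold for 17 of the 32 genes (48.9% of all tested genes did so), and in T for 12 (36.5% of all). B wt 2 held the highest B level for 12 of the 32 genes (37.5%, against 21.7% of all tested genes): Trp53, Ccng1, Gtse1, Phlda3, Eda2r, Zmat3, Aen, Fas, Ei24, Pidd1, Apaf1 and Steap3. B deltaPOZ 2 held the lowest B level also for 12 (37.5%, against 26.1% of all), among them Trp53, Ccng1, Gtse1, Phlda3, Zmat3 and Apaf1, and Eda2r, at 0 there as in B wt 1. B wt 1 held the lowest B level for 11 of the 32 genes (34.4%, against 28.6% of all). The median log2 deviation of the 32 genes from the median of the B libraries was small. It was 0.08 in B wt 2, -0.08 in B deltaPOZ 2 and -0.09 in B wt 1. Genes linked to p53 in the BCL2 and CDK inhibitor families, which are not among the 32 genes, were read beside them. Cdkn1a, the p21 cell cycle inhibitor, was at 0.605 and 0.498 CPM in B deltaPOZ against 0.493 and 5.67 CPM in B wt, and only B wt 2 was high. Bax, a death effector, stood at 70.6 and 51.4 CPM in B deltaPOZ and at 59.4 and 105 CPM in B wt, highest again in B wt 2. These were the only 2 of the 6 genes read in these families that were highest in B wt 2. Of the others, 2 (Bbc3 and Bcl2l1) were highest in B wt 1 and 2 (Cdkn2a and Pmaip1) in B deltaPOZ 2. Cdkn2a, whose p19Arf product inhibits Mdm2, stood at 2.38 and 90.7 CPM in B deltaPOZ and at 0.987 and 11.7 CPM in B wt, so that B deltaPOZ 2, with the lowest Trp53, held the highest Cdkn2a. These libraries are also the ones with the high myeloid sum (B wt 2) and the raised erythroid sum (B deltaPOZ 2) among the B libraries, and the part of other cells in these levels was not tested.

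**Figure D3:**
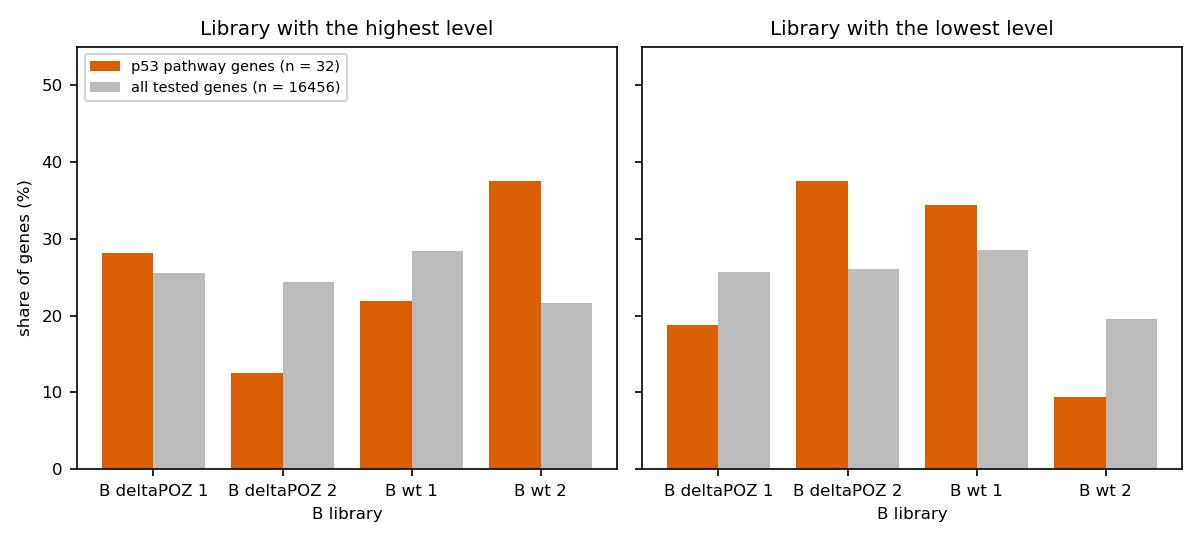
Share in percent of the 32 p53 pathway genes (orange) and of all 16456 tested genes (grey) whose highest (left) or lowest (right) level among the 4 B libraries lay in the library named below. B wt 2 was the highest library for 37.5% of the 32 genes and 21.7% of all, and B deltaPOZ 2 the lowest for 37.5% and 26.1%. B wt 1 was the lowest for 34.4% and 28.6%.

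In T, T deltaPOZ 1 held the highest level for 12 of the 32 genes (37.5%, against 24.4% of all tested genes), among them Trp53, Ccng1, Phlda3, Sesn2, Fdxr, Tnfrsf10b and Zmat3. T wt 1 held the highest T level for 10 of the 32 genes (31.2%, against 27.1% of all). The median log2 deviation of the 32 genes from the median of the T libraries was 0.03 in T deltaPOZ 1. It was 0.04 in T wt 1. The lowest levels were shared evenly, with 8 of the 32 genes in each T library. T deltaPOZ 1 had the lowest sums of T cell markers (1891 CPM, against 2358 to 3577 CPM in the other T libraries) and of NK cell markers (150.5 CPM against 154 to 391 CPM). Its myeloid sum of 577 CPM was second to that of T wt 1 (949 CPM), and its erythroid sum of 7629 CPM was neither the highest nor the lowest. The part of other cells in these levels was not tested.

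**Figure D4:**
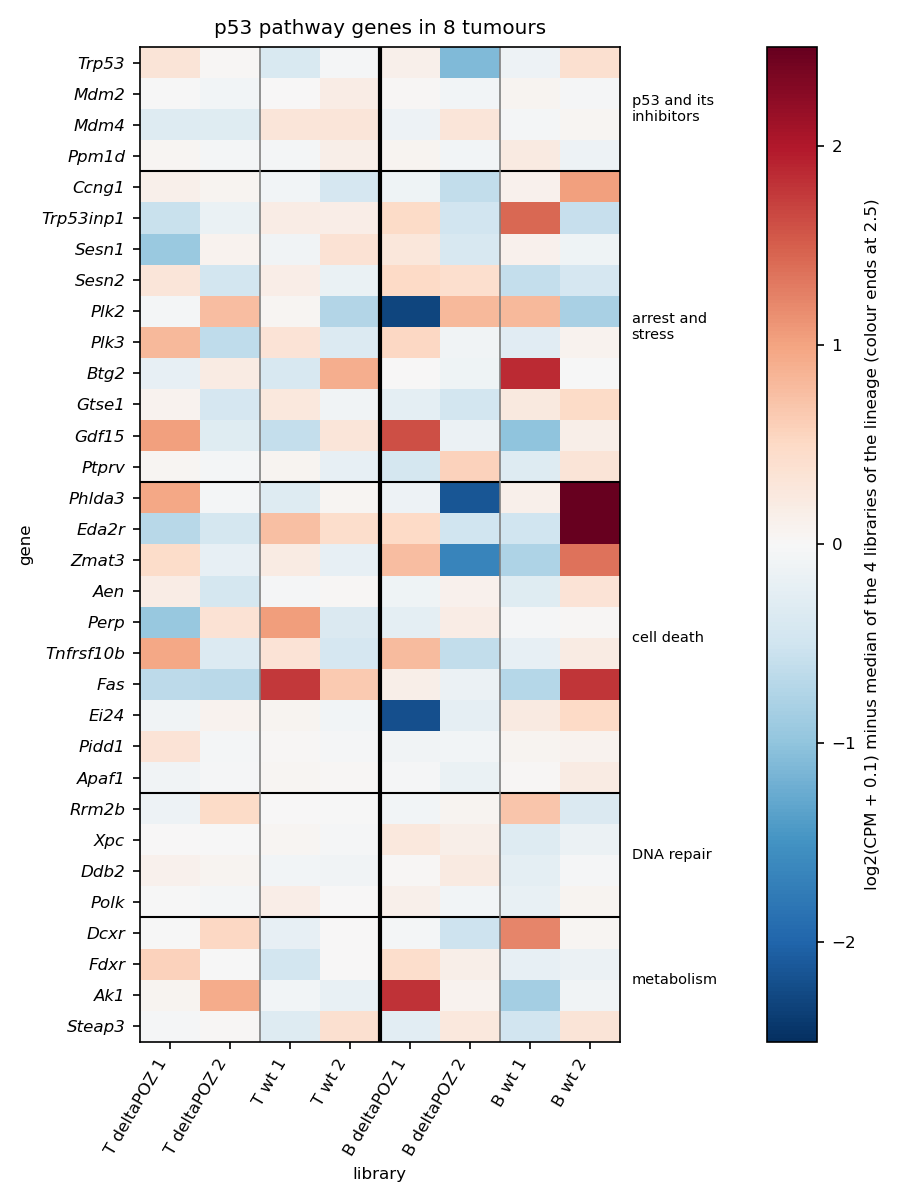
Level of each of the 32 genes (rows, by role) in each library (columns) as log2(CPM + 0.1) minus the median of the 4 libraries of its lineage, red for above and blue for below, with the colour scale ending at 2.5. Dark cells include Phlda3 and Eda2r in B wt 2 (red), and Plk2 and Ei24 in B deltaPOZ 1 and Phlda3 and Zmat3 in B deltaPOZ 2 (blue). The core genes are pale apart from Trp53 in B deltaPOZ 2.

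More genes passed between T and B tumours than between genotypes, although lineage, run and the erythroid share of the T tumours cannot be told apart. The lineage comparison used all 8 libraries, and each genotype comparison within a lineage set 2 against 2, with wider SEs (for Mdm2 0.16 in B against 0.11). The average genotype effect also used all 8, and 0 of the 32 genes passed there. Of the 32 genes 8 passed edgeR in T against B over both genotypes (25%), against 35.3% of all tested genes, and 11 had an unadjusted p under 0.05 (34.4% against 46.6%). DESeq2 called 9 (28.1% against 41.9%). Mdm2, Sesn2, Trp53inp1 and Perp were higher in T (12.5%, against 19.3% of all), and Dcxr, Rrm2b, Plk2 and Sesn1 were lower (12.5%, against 16% of all). The 4 T and the 4 B libraries did not overlap for the same 8 of the 32 genes (25%), against 37.1% of all genes.

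In the following, the first value in parentheses is the log2 fold change, T over B. Plk2, a polo-like kinase induced by stress, stood at 0.788 and 1.48 CPM in T deltaPOZ and 0.854 and 0.451 CPM in T wt, and at 2.75 and 24.1 CPM in B deltaPOZ and 24.4 and 7.87 CPM in B wt (log2 fold change -4.10, SE 0.80, edgeR adjusted p = 0.00947). Dcxr had 1.10 and 1.61 CPM in T deltaPOZ and 0.947 and 1.10 CPM in T wt, beside 3.93 to 13.4 CPM in B (-2.51, SE 0.38, adjusted p = 0.00428). Rrm2b, which supplies deoxynucleotides for repair, stood at 15.7 and 23.8 CPM in T deltaPOZ and 17.3 and 17.0 CPM in T wt, and at 52.3 and 57.4 CPM in B deltaPOZ and 88.7 and 42.5 CPM in B wt (-1.71, SE 0.27, edgeR adjusted p = 0.00461). A pseudogene, Gm3362, overlaps Rrm2b on the same strand at 7.69 to 12.5 CPM, so reads may be split between them. Sesn1 stood at 29.9 to 73.2 CPM in T and at 77.8 to 125 CPM in B (-0.93, SE 0.27, edgeR adjusted p = 0.0379).

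Sesn1 and Sesn2, the sestrins among the 32 genes, thus went opposite ways. Sesn2 rose to 10.1 to 17.0 CPM in T, against 3.66 to 7.90 CPM in B (log2 fold change 1.32, SE 0.25, edgeR adjusted p = 0.00881). Trp53inp1 rose to 757 to 1256 CPM in T, against 189 to 756 CPM in B (1.48, SE 0.44, edgeR adjusted p = 0.0381), where the lowest T library lay just above the highest B library. Mdm2 was at 97.5 to 115 CPM in T and at 77.3 to 85.8 CPM in B, a small but even difference (0.35, SE 0.11, edgeR adjusted p = 0.0481). Perp, a desmosome protein, held 4 to 32 counts in each T library and 1 to 3 counts in each B library. Its pooled level was 7.66-fold higher in T, at 0.298 CPM in T and 0.0389 CPM in B. The B level lay under that of 3 counts. The exact 95% counting interval of 3.67 to 18.5 pools reads over tumours and leaves out the spread between them (0.0733 to 0.594 CPM in T). Perp could pass the filter on counts only through T libraries, so its test for a higher level in T is not independent of that filter. Perp had an edgeR adjusted p of 0.0393 and a limma-voom adjusted p of 0.0725.

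Plk2, Dcxr, Rrm2b and Sesn2 passed in each of 8 fits that left out 1 library. Mdm2 passed in none of them (edgeR adjusted p = 0.0844 to 0.147). Sesn1 passed without B deltaPOZ 2 or T deltaPOZ 2 only, Trp53inp1 without B wt 1 or B wt 2 only, and Perp without T deltaPOZ 1 only, with adjusted p of up to 0.118, 0.104 and 0.164 otherwise. Trp53 itself stood at 67.2 to 109 CPM in T and at 28.5 to 81.8 CPM in B, where the ranges overlapped (0.60, SE 0.29, edgeR adjusted p = 0.149).

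Levels were compared between genes as mean CPM per kilobase of exon. The length joined all annotated exons of a gene (14.8 kb for Mdm4 and 4.045 kb for Trp53). The annotation used for counting is not stated, so these levels depend on that choice of length. Trp53inp1 led in T at 164 CPM per kb, followed by Btg2 at 86.9 and Ccng1 at 40.6 CPM per kb. In B, Btg2 at 73.8, Trp53inp1 at 59.3 and Ccng1 at 52.7 CPM per kb led. The 4 core genes lay close together, Trp53 at 21.7, Mdm2 at 20.5, Mdm4 at 15.9 and Ppm1d at 15.7 CPM per kb in T, and at 14.4, 16.0, 19.3 and 13.3 CPM per kb in B. At the other end Perp, Eda2r, Gdf15 and Ak1 lay between 0.0207 and 0.211 CPM per kb over both lineages. Tnfrsf10b in B (0.155 CPM per kb) and Plk2 in T (0.199 CPM per kb) also lay in this range.

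Genes that act on p53 from upstream were read from a second list of 40, of which 38 could be tested. None passed edgeR for deltaPOZ in B or T, with 5 at an unadjusted p under 0.05 in B (13.2% against 12.1% of all tested genes) and 2 in T (5.26% against 2.65%). Groups of 2 did not overlap for 24 of the 38 in B (63.2% against 38.9% of all), 14 higher and 10 lower. In T they did not overlap for 14 (36.8% against 32.4%). Rpl11, a ribosomal protein that binds Mdm2 when ribosome assembly fails, stood at 1499 and 1329 CPM in B deltaPOZ, against 1020.1 and 891 CPM in B wt (log2 fold change 0.57, SE 0.17, edgeR adjusted p = 0.311). It lies on distal chromosome 4, where its 273 tested neighbours within 10 Mb had a median of 0.52. Pml, which gathers p53 in nuclear bodies, was at 0.50 (SE 0.18), H2afx, the histone marked at breaks, at -0.63 (SE 0.22), and Trim24, a ubiquitin ligase for p53, at -0.85 (SE 0.31) on the log2 scale in B. In T the checkpoint kinase Chek1 was measured at 101 and 92.7 CPM in T deltaPOZ, against 53.8 and 70.5 CPM in T wt (0.64, SE 0.26), and nucleophosmin Npm1 was at 0.50 (SE 0.18), both with an edgeR adjusted p of 1. Between lineages 14 of the 38 passed (36.8% against 35.3% of all), 6 higher in T, among them H2afx, Setd7 and Ep300, and 8 lower, among them Npm1 (-1.28, SE 0.13, adjusted p = 0.00122, or 0.0600 without the 3 libraries that stood apart).

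Of 31 further p53 target symbols 30 were matched to a gene and 29 could be tested, and 0 passed edgeR for deltaPOZ in B or in T. In B, 5 had an unadjusted p under 0.05 (17.2% against 12.1% of all), 4 of them lower, and DESeq2 called 4, Trp53i11, Epha2, Cd82 and Gls2. Trp53i11, a membrane protein linked to cell death, stood at 34.9 and 39.6 CPM in B deltaPOZ, against 181 and 142 CPM in B wt, and the groups lay far apart (log2 fold change -2.12, SE 0.35, edgeR adjusted p = 0.143). Epha2, an ephrin receptor, stood at 0.293 and 3.91 CPM in B deltaPOZ, against 43.5 and 60.3 CPM in B wt (-4.63, SE 1.17, edgeR adjusted p = 0.268). Cd82, a tetraspanin, stood at 5.79 and 4.41 CPM in B deltaPOZ, against 14.1 and 16.0 CPM in B wt (-1.56, SE 0.44, edgeR adjusted p = 0.299). In these 3 genes both B wt libraries were high, unlike in Phlda3 and Eda2r. Trp53i11 (93187548 to 93201759) and Cd82 (93419111 to 93463140) lie close together on chromosome 2. A change shared by their region was not tested. Gls2, a mitochondrial glutaminase, reached 27.1 CPM in B deltaPOZ 1, far above the other B libraries. In T none of the 29 had an unadjusted p under 0.05 by edgeR. Between lineages 10 of the 29 passed (34.5% against 35.3% of all), 6 higher in T, led by Cd82 (5.49, SE 0.36, edgeR adjusted p = 0.000326), and 4 lower, among them Tigar and Epha2. The T and B libraries overlapped for Epha2, which stood at 0.202 to 0.729 CPM in T and was high in B wt only.

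The 6 genes linked to p53 in the BCL2 and CDK inhibitor families gave 0 calls by edgeR for deltaPOZ in B or T. Bcl2l1, the survival gene of Bcl-xL, stood at 5.13 and 3.09 CPM in B deltaPOZ, against 12.0 and 9.83 CPM in B wt (-1.41, SE 0.47, edgeR adjusted p = 0.344). The death activators Bbc3 and Pmaip1 had log2 fold changes of -0.85 (SE 0.52) and 0.54 (SE 0.46) in B, and -0.45 (SE 0.52) and -0.43 (SE 0.46) in T. Between lineages Bcl2l1 was higher in T (3.48, SE 0.36, edgeR adjusted p = 0.0012). Its value was 3.06 without T wt 2 and 3.74 without T wt 1. Among the T libraries Bcl2l1 was highest in T wt 2 and lowest in T wt 1. These libraries also held the highest (22657 CPM) and the lowest (4658 CPM) erythroid sum in T. The part of erythroid cells in the Bcl2l1 difference was not tested. Cdkn2a was lower by edgeR (-4.02, SE 1.25, adjusted p = 0.0450), although its T and B libraries overlapped. The call was lost by limma-voom (adjusted p = 0.276). With 1 library left out it held by edgeR without B deltaPOZ 1 or B wt 1 only (adjusted p of up to 0.165 otherwise), and the value was -1.87 without B deltaPOZ 2.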

How the data were processed

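The submitters' processing notes name TopHat2 2.0.10, SAMtools, HTSeq and DESeq, and the builds mm10 and GRCm38. The deposited files hold whole-number counts per gene from stranded mRNA libraries, per the labels' protocols, with no normalization by the authors that the sources name. The annotation release, strand setting and rule for overlapping genes are not stated in the labels. No-feature counts (30.4 to 39.3%) and ambiguous counts (0.471 to 0.554%) were left out. Names, positions and exon lengths came from GENCODE M21 (GRCm38).

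Counts were scaled by trimmed mean of M values, filtered with filterByExpr and fitted over all 8 libraries in edgeR 4.0.16 (glmQLFit and glmQLFTest, 1 mean per group, 4 residual degrees of freedom, biological coefficient of variation 0.45). The deltaPOZ effect was taken within B and within T, as their mean, and as T effect minus B effect; lineages were compared as T minus B. Benjamini-Hochberg adjustment of p-values ran over 16456 genes, with a threshold of 0.05, and an SE is the log2 fold change divided by the square root of F. CPM use the scaled library sizes. DESeq2 1.42.0 and limma 3.58.1 (voom) ran in R 4.3.3, tables in Python 3.11.15 with pandas 2.3.3, and the code was tested on simulated data. Replicates are numbered in record order.

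The members and lists were chosen with earlier results of these data known. Values in every library are given for Trp53, Mdm2, Mdm4, Ppm1d and, per contrast, the 5 members with the smallest p; other members were named for illustration after their values were seen. Of the other lists, up to 4 genes per contrast with the smallest p are eligible, plus Cdkn1a, Cdkn2a, Bax, Bbc3 and Pmaip1. Trp63, Trp73 and Rprm had too few counts to be tested, and Tnfrsf10d was not matched to a gene. Alternatives were DESeq2, voom, median-of-ratios scaling, a minimum total of 10 counts as filter, separate fits of B and T, and fits without each library.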

Additional observations from a re-analysis of the deposited data

Results flagged for a closer look

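Ccng1 was singled out because both B deltaPOZ libraries lay below both B wt libraries while both T deltaPOZ libraries lay above both T wt libraries. The T effect minus the B effect was 1.31 on the log2 scale (SE 0.47, edgeR unadjusted p = 0.0267, adjusted p = 0.738), so the test of the difference did not pass over all genes. It ran from 0.72 to 1.69 when each library was left out in turn, lowest without B wt 2. The same order was seen for 4.64% of all tested genes.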

How the results depend on the processing

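The counts of p53 pathway genes that passed edgeR for deltaPOZ in B, in T, in their average and in their difference stayed at 0 under every setting that was run, except for 1 gene in B by DESeq2 (Phlda3). They were 0 to 0 when each library was left out in turn. At an unadjusted p under 0.05 the count in B was 2 with each lineage alone and 2 without 3 libraries together (B wt 2, T wt 1 and T deltaPOZ 2, a setting chosen after seeing the data, with 1 residual degree of freedom), and 3 to 5 with 1 library left out. In T it was 2 by DESeq2, 3 with each lineage alone, 2 without the 3 libraries, and 0 to 2 with 1 left out. In the average it was 2 by limma-voom, 2 without the 3 libraries and 1 to 5 with 1 left out, and in the difference 0 without the 3 libraries and 0 to 4 with 1 left out. For T against B, 1 gene passed without the 3 libraries (Rrm2b) and 4 to 7 with 1 left out, with 7 to 12 at an unadjusted p under 0.05; Mdm2 did not pass with the filter on a total of 10 counts (edgeR adjusted p = 0.0743), and Perp was filtered out without the 3 libraries. Signs turned for Mdm2 in B with the total filter (0.011) and with 1 library left out (-0.046 to 0.012), for Mdm4 in B (-0.13 to 0.36), and for Ppm1d in B (-0.17 to 0.13) and T (-0.16 to 0.049). Eda2r in the average turned without the 3 libraries (1.55) and with 1 left out (-4.92 to 1.59). The causes of these moves were not tested, though leaving out libraries also lowers the degrees of freedom. Over all genes the calls in B were 1 by edgeR, 682 by DESeq2, 6 by limma-voom and 6 with B alone, in T 0 by edgeR and 51 by DESeq2, in the average 0 and 318, in the difference 0 and 225. For T against B they were 5801 by edgeR and 1312 without the 3 libraries. Genes with few counts, such as Perp, Eda2r, Gdf15 and Ak1, are limited by depth. No paired analysis was possible because the labels give the groups no shared replicate numbers.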
